A study of Mus musculus with 12 samples.

Results

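Cdc6, Cdt1, Orc1, Orc6 and Mcm10 are the 5 origin licensing factors described here, out of 17305 genes named on the array. They were taken from a list, and every probe whose RefSeq accession belonged to one of them was used, which gave 6 probes, 2 of them for Cdc6. All 6 probes were well above background on 12 of 12 arrays, so no member was lost to the filter on dim probes. The RNA came from mouse embryonic fibroblasts with Atm (Atm-WT) or with Atm knocked out (Atm-KO), Atm being a kinase activated by DNA double-strand breaks. Cells of each genotype were irradiated at 4.32 Gy and cultured for 72 h, or were nonirradiated. The time given for the nonirradiated samples was 72 h as well. The 4 groups were thus nonirradiated Atm-WT, irradiated Atm-WT, nonirradiated Atm-KO and irradiated Atm-KO, with 3 samples and 3 single-colour Agilent arrays each. The labels give no promoter, clone or passage for these cells, and do not say whether the samples of a group were separate cultures. The spread behind each p-value is therefore that of the samples as deposited, and could be technical.

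A replication origin is licensed when the origin recognition complex binds DNA and, with Cdc6 and Cdt1, loads the Mcm2 to Mcm7 helicase onto it before S phase. Orc1 and Orc6 are subunits of that complex, Cdc6 is an ATPase that binds it, and Cdt1 brings in the helicase. Mcm10 is not a subunit of the loaded helicase and acts later, when the helicase is activated and the origin fires. In proliferating mammalian cells, transcription of Cdc6, Cdt1, Orc1 and Mcm10 is known to depend on E2F factors, and Cdt1 is held in check by the inhibitor geminin.

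The stretches below are shown because they hold the E2F letters found near the starts of Cdc6, Orc1 and Cdt1, and because the Mcm10 stretch holds none. They are RefSeq sequences on GRCm38.p6, 5′ to 3′ on the gene's strand. For Cdc6 (chr11:98907901-98908150, plus strand), Orc1 (chr4:108579204-108579453, plus strand) and Mcm10 (chr2:5012792-5013041, minus strand) the 250 bases before the start are given. For Cdt1 (chr8:122568035-122568064, plus strand) the 30 bases from 21 to 50 after the start are given. Capitals mark E2F letters and CCAAT boxes on either strand.
Cdc6: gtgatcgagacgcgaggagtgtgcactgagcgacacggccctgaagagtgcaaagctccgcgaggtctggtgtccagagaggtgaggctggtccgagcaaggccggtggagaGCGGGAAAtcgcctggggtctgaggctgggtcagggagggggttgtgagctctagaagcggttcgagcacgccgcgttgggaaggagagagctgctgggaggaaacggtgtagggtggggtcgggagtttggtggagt
Orc1: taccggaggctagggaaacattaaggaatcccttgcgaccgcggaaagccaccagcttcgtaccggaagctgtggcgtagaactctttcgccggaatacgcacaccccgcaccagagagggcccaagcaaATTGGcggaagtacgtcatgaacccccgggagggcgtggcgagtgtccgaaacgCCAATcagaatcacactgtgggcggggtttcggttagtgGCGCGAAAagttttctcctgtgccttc
Cdt1: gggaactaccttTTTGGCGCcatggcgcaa
Mcm10: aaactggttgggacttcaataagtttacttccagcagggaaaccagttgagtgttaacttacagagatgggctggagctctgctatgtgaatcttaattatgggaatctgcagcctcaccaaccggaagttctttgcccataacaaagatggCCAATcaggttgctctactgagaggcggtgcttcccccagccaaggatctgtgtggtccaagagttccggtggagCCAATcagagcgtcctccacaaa

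All 5 members had an entry in the promoter table, which covers 250 bases before and 50 bases after each start. The E2F spellings searched on both strands were TTTGGCGC, TTTCGCGC, TTTCCCGC and TTTGCCGC. They were found in 3 of the 5 windows and in 2.265% of the 32851 windows in the table. The match in Cdc6 began 138 bases and that in Orc1 began 27 bases before the start, both on the opposite strand, and that in Cdt1 began 33 bases after it. The box CCAAT was found in 3 of the 5 windows, those of Orc1, Orc6 and Mcm10, and in 37.408% of all windows. The cell cycle element TTTGAA was found in 0 of the 5 windows and in 17.893% of all. No match overlapped another, and a match is a run of letters, not a measured binding site.

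Levels are log2 signals minus the array's 75th percentile, so they compare 1 probe across samples and do not rank genes against each other. The 75th percentile of signal ran from 379 to 757 between arrays, 55.3% to 64.5% of probes were well above background and no spot was saturated. All 8 fibroblast markers were well above background on every array. The summed linear signal of macrophage and blood cell markers, 8 of 9 of which were on the array, was 1.82 to 4.57 in Atm-WT samples and 0.243 to 0.486 in Atm-KO samples, in units of the 75th percentile. Ptprc, which defines blood cells, was well above background on 2 of 12 arrays, and Pecam1, an endothelial marker, on 0. Epithelial markers summed to 0.525 to 4.54 and endothelial ones to 0.118 to 0.502. The brighter Atm probe lay between -5.65 and -2.87 in Atm-WT samples and between -7.50 and -5.43 in Atm-KO samples, and 1 Atm-WT sample, nonirradiated, lay within the Atm-KO range. Without pairs limma did not call Atm lower in Atm-KO cells (adjusted p = 0.475 without and 0.225 after irradiation), with the block it did (adjusted p = 0.00941 and 0.00286), and where the probe lies relative to the deleted part is not known. Every slide carried nonirradiated cells at positions 1 and 3 and irradiated cells at positions 2 and 4, so position on the slide and irradiation cannot be told apart.

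The first question was how the licensing factors differed 72 h after irradiation. All 5 had lower mean levels in irradiated than in nonirradiated cells of both genotypes. Averaged over genotypes, Cdc6 was 1.81-fold, Cdt1 1.65-fold and Mcm10 1.65-fold lower, while the differences of Orc1 and Orc6 were smaller (1.40-fold and 1.35-fold). These 3 genes fell by the fit with same-numbered samples as pairs, and none of the 5 was called by the fit without pairs. In these bulk samples, fewer cells that make a transcript and less transcript per cell cannot be told apart. Markers of other cell types also differed with irradiation. The summed macrophage and blood cell signal went from 4.57 to 2.37, 3.84 to 2.83 and 2.47 to 1.82 in Atm-WT pairs 1 to 3, and from 0.474 to 0.486, 0.270 to 0.302 and 0.243 to 0.320 in Atm-KO pairs. With pairs, averaged over genotypes, limma called 1 of 7 tested genes of that list (Cd53, 0.99) higher. It also called 1 of 6 epithelial (Krt18, 0.65) and 1 of 3 endothelial markers (Kdr, 0.88) higher, and none of them without pairs. Of all features, 4.8% were called higher with pairs and 1.03% without. The uncalled macrophage and blood cell genes ran from -0.48 (Lyz2) to 0.26 (C1qc) and the epithelial ones from -0.65 (Cdh1) to 0.23 (Krt5). Cdh5 and Tek, the uncalled endothelial markers, measured -0.46 and 0.20. The part of these markers in the licensing factors' differences was not tested.

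Cdc6, the ATPase that joins the origin recognition complex to load the helicase, had Atm-WT levels, for samples 1, 2 and 3, of -1.95, -1.87 and -2.59 in nonirradiated and -3.04, -2.80 and -2.39 in irradiated cells. Its Atm-KO levels were -1.31, -1.81 and -2.14 in nonirradiated and -2.82, -2.86 and -2.91 in irradiated cells. The Atm-KO groups did not overlap, whereas in Atm-WT cells sample 3 was the dimmest nonirradiated and the brightest irradiated sample. Within same-numbered pairs, irradiated minus nonirradiated Cdc6 was -1.09, -0.93 and 0.20 in Atm-WT cells and -1.51, -1.05 and -0.77 in Atm-KO cells. It was thus lower in 5 of 6 pairs, the exception being Atm-WT pair 3. The 2 Atm-WT pairs on slide 1 averaged -1.01, against 0.20 for the pair on slide 2.

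The dimmer Cdc6 probe was lower in 6 of 6 pairs, with differences from -1.26 to -0.26. Its levels were -2.58, -2.78 and -3.32 in Atm-WT cells without irradiation, against -3.83, -3.84 and -3.78 with it. The Atm-KO values were -2.43, -2.93 and -2.81, then -3.36, -3.19 and -3.73. On this probe neither genotype's groups overlapped, and Atm-WT pair 3 showed -0.46 where the brighter probe showed 0.20. Averaged over genotypes the dimmer probe differed by -0.81 ± 0.184 (limma's adjusted p = 0.0502 over 24450 probes) and, with pairs, by the same amount ± 0.158 (adjusted p = 0.0155).

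Cdt1, which carries the helicase to the origin, had levels of 2.40, 2.66 and 2.59 in nonirradiated and 1.41, 2.04 and 1.92 in irradiated Atm-WT samples. Its levels were 3.14, 2.77 and 2.75 in nonirradiated and 1.84, 2.33 and 2.42 in irradiated Atm-KO samples. In both genotypes every irradiated sample lay below every nonirradiated one. The pair differences of Cdt1 were -0.99, -0.62 and -0.67 in Atm-WT cells and -1.30, -0.44 and -0.33 in Atm-KO cells. Both pairs numbered 1 showed a wider gap than the other pairs of their genotype.

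Orc1, the ATPase subunit of the origin recognition complex, was a dim probe with levels of -3.17, -2.95 and -3.99 in nonirradiated Atm-WT cells, against -3.78, -4.17 and -3.96 in their irradiated counterparts. For Atm-KO cells it measured -3.00, -3.80 and -3.68, against -3.01, -4.20 and -4.38. The groups overlapped in both genotypes. Orc1 was lower in 5 of 6 pairs, by -0.61, -1.22 and 0.03 in Atm-WT cells and -0.01, -0.40 and -0.70 in Atm-KO cells, so that both pairs on slide 2 (Atm-WT pair 3 and Atm-KO pair 1) were close to 0.

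Orc6, the smallest subunit of that complex, had levels of 3.25, 2.57 and 3.19 in nonirradiated and 2.93, 2.31 and 2.24 in irradiated Atm-WT samples. Its levels were 3.27, 2.74 and 2.76 in nonirradiated and 2.95, 2.37 and 2.40 in irradiated Atm-KO samples. The groups overlapped in both genotypes, because sample 1 was the highest of its group in 4 of 4 groups. Within pairs Orc6 was lower in 6 of 6, by -0.32, -0.26 and -0.94 in Atm-WT cells and by -0.31, -0.37 and -0.36 in Atm-KO cells. Sample 1 exceeded the mean of samples 2 and 3 by 0.52 for Orc6 and by 0.65 for Orc1, more than the irradiation difference of either gene, and by -0.24 to 0.14 for the other 3 members.

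Mcm10, which acts when the loaded helicase is activated, had levels of 0.72, 0.97 and 0.18 in nonirradiated and 0.0095, 0.26 and -0.25 in irradiated Atm-WT samples. Its levels were 1.39, 1.36 and 1.08 in nonirradiated and 0.45, 0.41 and 0.46 in irradiated Atm-KO samples. The Atm-KO groups lay apart and the Atm-WT groups overlapped. The pair differences of Mcm10 were -0.71, -0.71 and -0.44 in Atm-WT cells and -0.94, -0.94 and -0.62 in Atm-KO cells. All 6 were below 0, and in each genotype pair 3 had the smallest gap.

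**Figure D1:**
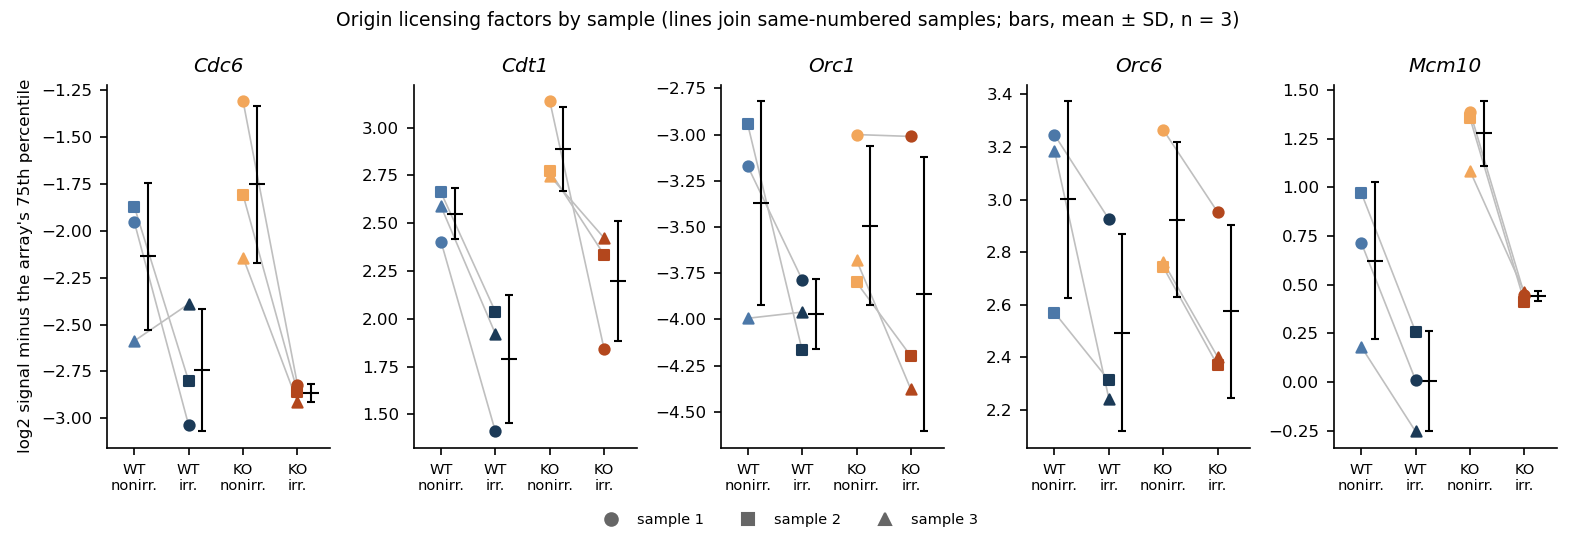
Log2 signal minus the array's 75th percentile of the 5 genes in the 12 samples, by group (x axis); symbols mark sample numbers, grey lines join same-numbered samples, and black bars give the mean ± SD (n = 3). Every line slopes down for Cdt1, Orc6 and Mcm10, and that of Atm-WT sample 3 slopes up for Cdc6 (by 0.20) and Orc1 (by 0.03).

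Over the 5 genes, 28 of 30 pair differences were below 0, against 52.3% of those of all features tested. Cdt1, Orc6 and Mcm10 were lower in all 6 pairs, as were 14.3% of the 18429 features tested. The median difference over the 5 members was -0.71, -0.71 and -0.44 in Atm-WT pairs 1 to 3 and -0.94, -0.44 and -0.62 in Atm-KO pairs 1 to 3. Atm-WT pair 3 was the pair in which 2 of the 5 members were not lower.

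**Figure D2:**
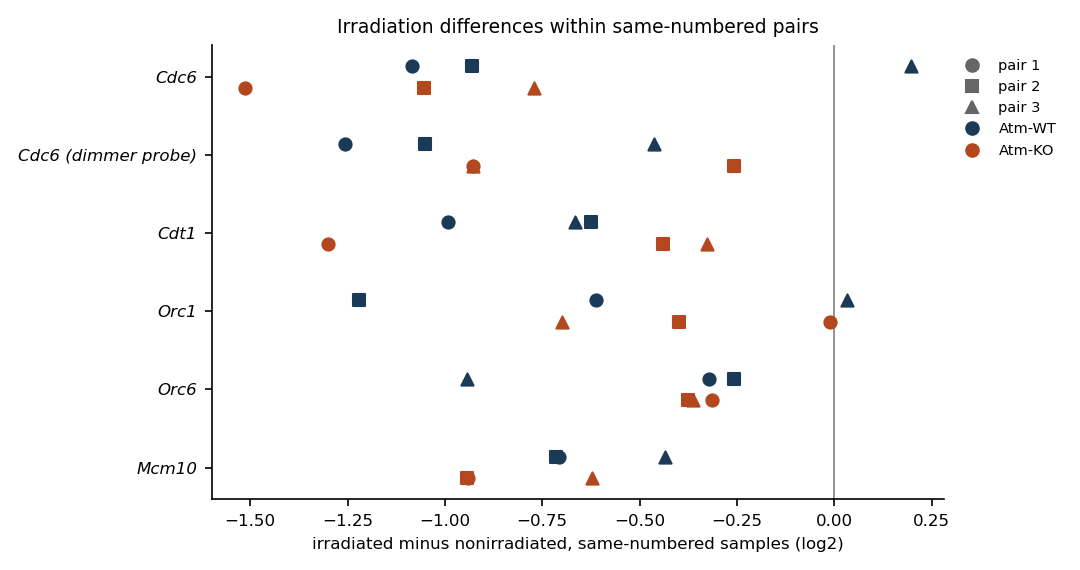
Irradiated minus nonirradiated log2 signal (x axis) within each same-numbered pair, for the 5 genes and for the dimmer Cdc6 probe; colours mark the genotype and symbols the pair number. All points lie below 0 except Atm-WT pair 3 for the brighter Cdc6 probe (0.20) and Orc1 (0.03).

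In Atm-WT cells, limma called none of the 5 differences, against 0.0217% of all features called lower. The differences were -0.61 ± 0.291 for Cdc6, -0.76 ± 0.257 for Cdt1, -0.60 ± 0.393 for Orc1, -0.51 ± 0.297 for Orc6 and -0.62 ± 0.253 for Mcm10 (log2 ± SE, n = 3 arrays a group), with limma's adjusted p from 0.478 upward. At an unadjusted p under 0.05 Cdt1 and Mcm10 were lower, 2 of 5 members against 2.71% of features. Only Cdt1 had groups that did not overlap, which held for 5.7% of features in that direction. With pairs as a block limma called 0 of 5 as well (smallest adjusted p = 0.128, Mcm10), 4 of 5 having an unadjusted p under 0.05, against 0.624% and 7.35% of features. Single pairs and samples moved Cdc6 and Orc1 both ways by over 1.5 times, and Orc6 by as much only toward 0. Cdt1 stayed between -0.88 and -0.57 and Mcm10 between -0.84 and -0.44. Without pair 3, Cdc6 differed by -1.01, Orc1 by -0.92 and Orc6 by -0.29. Without pair 1 Cdc6 differed by -0.37, and without pair 2 Orc1 differed by -0.29. Without nonirradiated sample 3 Orc1 differed by -0.91, and without nonirradiated sample 2 by -0.39.

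In Atm-KO cells the differences were -1.11 ± 0.291 for Cdc6, -0.69 ± 0.257 for Cdt1, -0.37 ± 0.393 for Orc1, -0.35 ± 0.297 for Orc6 and -0.84 ± 0.253 for Mcm10. Limma called none of the 5 (smallest adjusted p = 0.259, Cdc6), and 0% of features lower. Cdc6, Cdt1 and Mcm10 were the 3 of 5 members lower at an unadjusted p under 0.05, against 5.05% of features. The same 3 genes had groups that did not overlap, against 10.4% of features lower in that way. With pairs as a block limma again called 0 of 5, with adjusted p = 0.0507 for Mcm10 and 0.0761 for Cdc6, while 0.868% of features were called lower. At an unadjusted p under 0.05 that fit had 3 of 5 lower, against 11.6% of features. Without pair 1 Cdt1 differed by -0.38. Leaving out single samples or pairs moved Orc1 between -0.80 (without irradiated sample 1) and -0.11 (without irradiated sample 3), and Orc6 between -0.54 (without irradiated sample 1) and -0.18 (without nonirradiated sample 1).

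Averaged over both genotypes, Cdc6 differed by -0.86 ± 0.205, Cdt1 by -0.72 ± 0.182 and Mcm10 by -0.73 ± 0.179, with limma's adjusted p of 0.0593, 0.0712 and 0.0663. Orc6 differed by -0.43 ± 0.210 (adjusted p = 0.407) and Orc1 by -0.48 ± 0.278 (adjusted p = 0.505). That fit called 0 of 5 members and 0.787% of features lower. At an unadjusted p under 0.05, 3 of 5 members were lower, against 7.9% of features. Without the samples numbered 1 this fit called Cdt1 (-0.51, adjusted p = 0.0395), and without nonirradiated Atm-WT sample 3 it called Mcm10 (-0.84, adjusted p = 0.0465) and Cdc6 (-0.97, adjusted p = 0.0493).

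With same-numbered samples as a block, limma called Cdc6 (adjusted p = 0.0257), Cdt1 (adjusted p = 0.0247) and Mcm10 (adjusted p = 0.00891) lower. These 3 of 5 stood against 5.45% of all features called lower by the same fit. Orc6 (adjusted p = 0.0791) and Orc1 (adjusted p = 0.119) were not called, though all 5 had an unadjusted p under 0.05, as had 14.9% of features in the lower direction. The calls changed when the samples of 1 number were left out in both genotypes. Without both pairs numbered 1 limma called Cdt1 and Mcm10, without those numbered 2 Cdc6 and Cdt1, and without those numbered 3 Cdc6 alone. In the last case Cdc6 differed by -1.15, and Cdt1 and Mcm10 by -0.84 and -0.83 with limma's adjusted p = 0.100 and 0.0712. For Cdt1 and Mcm10 the differences were wider than with all pairs, and the SEs were 0.228 and 0.201 instead of 0.159 and 0.125. The median over the 5 members was -0.72, where the median over all features was -0.03 and 53.5% of them were negative.

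**Figure D3:**
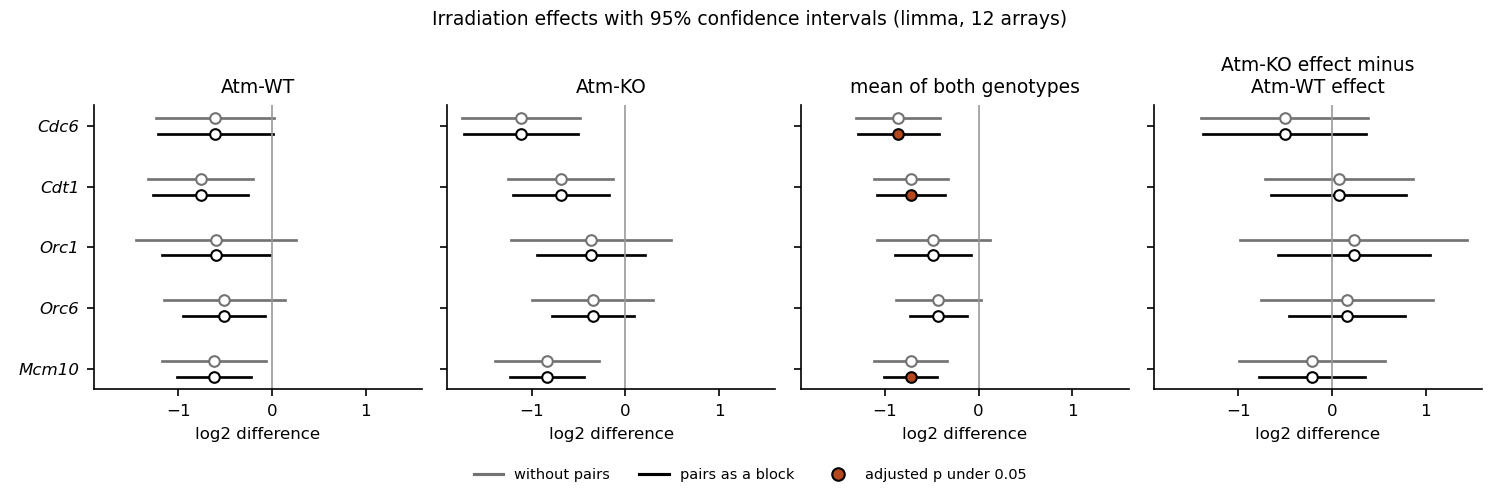
Log2 differences (points) with 95% confidence intervals (lines) of the 5 genes, without pairs (grey) and with pairs as a block (black), for irradiation in each genotype, their mean, and Atm-KO minus Atm-WT effect. Filled points, with adjusted p under 0.05, occur for Cdc6, Cdt1 and Mcm10 in the mean of both genotypes with pairs, and every interval of the rightmost panel spans 0.

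The next question was whether irradiation acted differently on these genes in Atm-KO and Atm-WT cells. The Atm-KO effect minus the Atm-WT effect was -0.51 for Cdc6 (95% interval -1.40 to 0.39), 0.07 for Cdt1 (-0.72 to 0.87), 0.23 for Orc1 (-0.98 to 1.44), 0.16 for Orc6 (-0.76 to 1.07) and -0.22 for Mcm10 (-1.0 to 0.56). Limma called 0 of 5, against 0.00543% of features, and none had an unadjusted p under 0.05, against 0.901% of features. The intervals allow gaps of up to 1.44 on the log2 scale, so they do not show that the genotypes responded alike. On the dimmer Cdc6 probe the difference was 0.22, opposite in sign to the brighter probe.

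Atm-KO was also compared with Atm-WT within each treatment, on samples that the irradiation comparisons use too. Without irradiation the ranking of group means put Atm-KO first for Cdc6 (-1.75 ± 0.420 against -2.14 ± 0.393, SD, n = 3), Cdt1 (2.89 ± 0.219 against 2.55 ± 0.132) and Mcm10 (1.28 ± 0.167 against 0.62 ± 0.403). For Orc1 (-3.49 ± 0.431 against -3.37 ± 0.551) and Orc6 (2.92 ± 0.296 against 3.00 ± 0.375) Atm-WT came first. For Orc1, Orc6 and Cdc6 the genotypes' means lay within 1 SD of each other, and the dimmer Cdc6 probe differed by 0.17. Cdt1 and Mcm10 were higher in every nonirradiated Atm-KO sample than in any nonirradiated Atm-WT sample, 2 of 5 members against 8.29% of features. The largest difference was that of Mcm10, 0.65 ± 0.253 with limma's adjusted p = 0.489, and 0 of 5 members were called, against 0.857% of features in either direction. Mcm10 alone had an unadjusted p under 0.05, as had 7.52% of features in either direction. The block narrowed the SE of Mcm10 to 0.185 (limma's adjusted p = 0.138) and again 0 of 5 were called, against 1.71% of features. In that fit too Mcm10 was the 1 member with an unadjusted p under 0.05, against 13.5% of features.

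After irradiation the means of Mcm10 were 0.44 ± 0.026 in Atm-KO and 0.0046 ± 0.256 in Atm-WT cells, and its groups did not overlap, as for 3.13% of features in that direction. Those of Cdt1 were 2.20 ± 0.314 and 1.79 ± 0.333, and overlapped. For Cdc6 (-2.86 ± 0.047 and -2.74 ± 0.328), Orc1 (-3.86 ± 0.743 and -3.97 ± 0.191) and Orc6 (2.57 ± 0.328 and 2.49 ± 0.376) the means lay within 1 SD of each other. Limma called 0 of 5, against 0.206% of features in either direction, and none had an unadjusted p under 0.05, against 5.23% of features. With same-numbered samples as a block limma again called 0 of 5, against 0.76% of features, and Mcm10 was the 1 member with an unadjusted p under 0.05, against 8.5% of features. The macrophage and blood cell markers given above were lower in Atm-KO samples of both treatments, and their part in these differences was not tested.

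From highest to lowest, Cdt1 and Mcm10 took the order nonirradiated Atm-KO, nonirradiated Atm-WT, irradiated Atm-KO, irradiated Atm-WT. In that order the first 2 groups did not overlap for either gene, nor did the last 2 for Mcm10, while the other neighbours overlapped. Cdc6 took the same order at the top but had irradiated Atm-KO cells lowest, and each neighbour overlapped the next. Orc1 and Orc6 shared the order nonirradiated Atm-WT, nonirradiated Atm-KO, irradiated Atm-KO, irradiated Atm-WT, with all neighbours overlapping.

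Slide 2 was the 1 slide that held both genotypes, as Atm-WT pair 3 and Atm-KO pair 1, while slide 1 held Atm-WT and slide 3 held Atm-KO cells. On slide 2, Atm-KO minus Atm-WT without irradiation was 1.21 for Mcm10, 1.28 for Cdc6, 0.99 for Orc1, 0.55 for Cdt1 and 0.08 for Orc6. In irradiated cells it was 0.70 for Mcm10, -0.43 for Cdc6, 0.95 for Orc1, -0.08 for Cdt1 and 0.71 for Orc6. Mcm10, Orc1 and Orc6 kept 1 sign across both treatments there, and Cdc6 and Cdt1 did not, each value resting on 1 sample per genotype. These Atm-KO samples were numbered 1 and the Atm-WT samples 3, so genotype and sample number cannot be told apart there. Across groups, sample 1 exceeded the mean of samples 2 and 3 by 0.65 for Orc1 and 0.52 for Orc6. Summed epithelial markers were 3.95 and 4.54 in these Atm-KO and 0.735 and 0.918 in these Atm-WT samples, and their part was not tested. With slide as a fixed term the nonirradiated difference of Orc1 was 0.86 instead of -0.12 and that of Orc6 0.32 instead of -0.08, neither called. That fit's genotype comparison also rests on slide 2.

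The remaining genes of licensing and firing were taken as lists and read in the averaged irradiation comparison, where the fit with pairs called 5.45% of features lower and 4.8% higher, and the fit without pairs 0.787% and 1.03%. The helicase that licensing loads was lower in 7 of 7 listed genes (Mcm2 to Mcm7 and Mcmbp, which binds the helicase), with a median of -0.71. With pairs 4 of 7 fell: Mcm5 by 1.01, Mcm6 by 0.83, Mcm2 by 0.77 and Mcm3 by 0.71. Without pairs Mcm5 and Mcm2 were called.

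In this average the other subunits of the origin recognition complex, Orc2 to Orc5, had the opposite sign to Orc1 and Orc6. The partner Lrwd1 had the same sign. With pairs, Orc2 measured 0.32 ± 0.174 (SE), Orc3 0.15 ± 0.158, Orc4 0.15 ± 0.155 and Orc5 0.04 ± 0.151. Lrwd1, which binds the complex on chromatin, had -0.27 ± 0.154. None of these 5 averages was called by either fit, and at an unadjusted p under 0.05 none passed either. The sign did not hold in each genotype for Orc5, at -0.076 in Atm-WT and 0.17 in Atm-KO cells. Orc2 measured 0.052 and 0.60. Their median was 0.15, where Orc1 measured -0.48 and Orc6 -0.43, neither of them called by either fit. Members and lists were chosen with earlier results of these data known, so the contrast between these subunits is a description only.

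Of 15 tested origin firing genes, 8 fell with pairs and 0 were called without, with a median of -0.52. Donson, which helps assemble the active helicase, fell by 0.70, Pole2, a subunit of the leading strand polymerase, by 0.72, Cdc45, a subunit of the active helicase, by 0.77, and Gins2, of the GINS complex, by 0.74. The other 4 that fell were Recql4, Pole, Wdhd1 and Ticrr. The kinase Cdc7 measured -0.37 and its activator Dbf4 -0.08, neither called.

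Of 13 tested genes that control licensing, 3 fell with pairs and 0 were called without, with a median of -0.27. Gmnn, which encodes the Cdt1 inhibitor geminin, fell by 1.04 ± 0.124 (limma's adjusted p = 0.00162 with pairs and 0.0712 without). Ccna2, the cyclin A of S phase and G2, fell by 1.14 and Fbxo5, an inhibitor of the anaphase promoting complex, by 0.60. Dtl, which marks Cdt1 for destruction in S phase, measured -0.55 and Cdk2 -0.48, and both missed the threshold (adjusted p = 0.0609 and 0.0522 with pairs). Geminin and Cdt1, the inhibitor and its target, were both lower in 6 of 6 pairs, as were 14.3% of all features.

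Of 13 E2F and Rb family genes, E2f7 and E2f8, which encode repressor E2F proteins, fell by 0.96 and 0.89 by both fits. Rb1, the gene of the retinoblastoma protein that restrains E2F, rose by 0.70 with pairs and was not called without. E2f1, the gene of an activator E2F, measured -0.35 and E2f2 -0.57, neither called, and the median of the list was -0.11. Of 12 p53 target genes 7 rose with pairs, among them Gdf15 (0.85), Mdm2 (1.1), Pmaip1 (1.20) and Cdkn1a (0.79), the inhibitor of cyclin-dependent kinases, and Mdm2 alone without pairs. The median of that list was 0.67.

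Markers of cycling cells moved the same way as the licensing factors. Of 10 such genes, 6 fell with pairs and 4 without, with a median of -0.81. Ccnb1 fell by 1.17, Birc5 by 1.26, Aurkb by 1.1 and Cdk1 by 0.99, while Top2a measured -0.21 and Bub1 -0.04, neither called. Each gene was centred on its mean over the 12 arrays, and the median of the 10 markers was taken in each sample. These medians averaged 0.43 ± 0.228 and -0.47 ± 0.318 (SD, n = 3) in nonirradiated and irradiated Atm-WT cells. In Atm-KO cells they averaged 0.42 ± 0.538 and -0.35 ± 0.321. The sample medians of the 5 licensing factors averaged 0.20 ± 0.357, -0.48 ± 0.084, 0.48 ± 0.280 and -0.29 ± 0.131 in the same 4 groups. The part of a changed share of cycling cells in the licensing factors' differences was not tested.

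**Figure D4:**
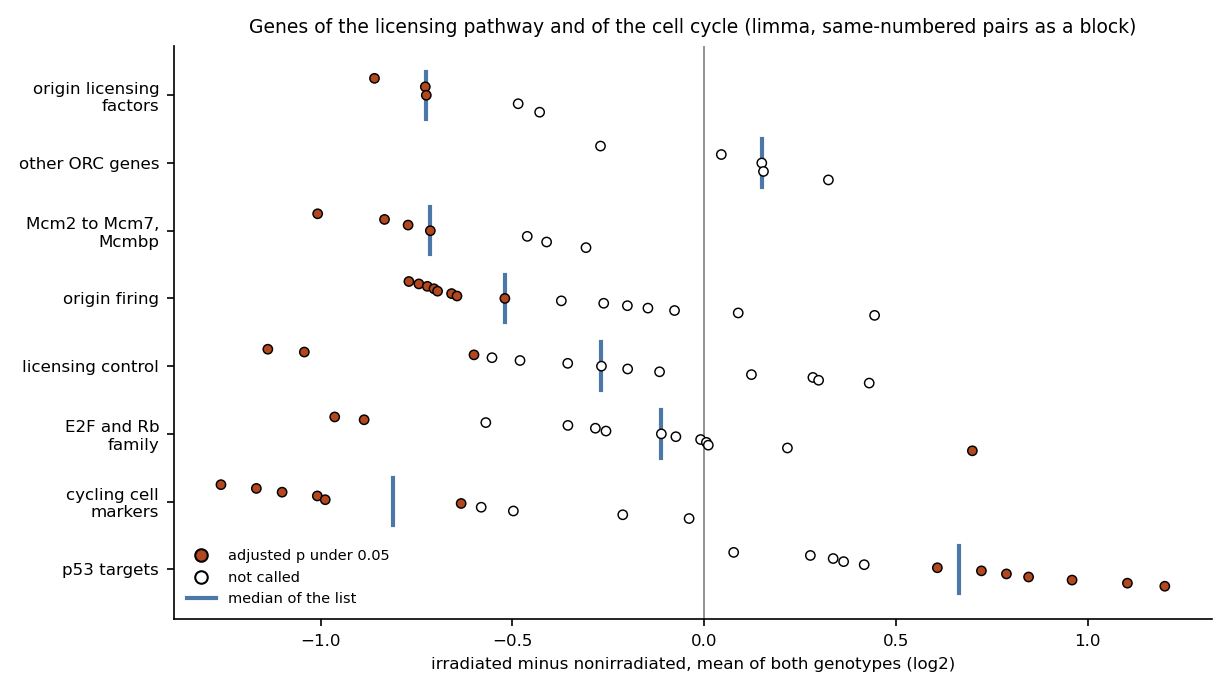
Irradiated minus nonirradiated log2 signal averaged over both genotypes (x axis), 1 point per gene, by list (y axis), from the fit with pairs; filled points have adjusted p under 0.05 and bars are list medians. The licensing factors (median -0.72) lie near the Mcm2 to Mcm7 genes (-0.71) and the cycling cell markers (-0.81), the other genes of the origin recognition complex spread from -0.27 to 0.32 (median 0.15), and p53 targets lie above 0.

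The 5 genes did not vary as 1 block across the 12 arrays. Pearson's r was 0.81 between Cdt1 and Mcm10, 0.78 between Cdc6 and Mcm10 and 0.78 between Cdc6 and Cdt1. It was 0.59 between Orc1 and Orc6, and lowest, at 0.24, between Cdt1 and Orc1. These values describe 12 arrays that share group differences and slides, and carry no test. With group means removed, r was 0.15 for Cdt1 and Mcm10, 0.48 for Cdc6 and Mcm10, 0.40 for Cdc6 and Cdt1, and 0.42 for Orc1 and Orc6. Cdt1 then had r of -0.37 with Orc1 and -0.54 with Orc6. Among 12804 other named genes, those most like Cdc6 were Mex3a (r = 0.97), Mybl2 (0.94) and Cdca2 (0.94). The nearest to Cdt1 were U2af1, Hrob and Pmf1 (0.96 each), and to Mcm10 Aunip (0.96), Insl6 (0.96) and Mboat1 (0.94). The nearest to Orc6 were Sarnp (0.99), Fkbp3 (0.98) and Cetn2 (0.97), and to Orc1 Pank1 (0.92), Ube2k (0.89) and Rad51ap1 (0.88).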

How the data were processed

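RNA of 12 samples was hybridised as Cy3-labelled cRNA. Scanner output deposited by the authors gives an intensity per spot, already background-subtracted, from Feature Extraction 10.7.1.1 per the file headers and 11.0 per the submitters' processing notes; which applies was not resolved. A deposited matrix of log2 values from the authors followed these signals after the same scaling and centring on each probe's median (r of at least 0.9975, slopes 0.9986 to 1.0002, 41174 of 41250 probes), used as an alternative.

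Here control spots were left out, and outlier spots only where the same probe had a spot that was not flagged. No spot of a member was flagged. Each array's 75th percentile was subtracted from its log2 processed signals. Accessions were matched to RefSeq genes (25097 of 41174 probes named). The brightest probe stood for a gene. Features well above background on all 3 arrays of a group were tested (18429, of which 12805 named). A group-means model on 12 arrays was fitted with limma 3.58.1 (R 4.3.3), with Benjamini-Hochberg adjustment at 0.05 over all features, and again with same-numbered samples as a block. Both fits were checked on simulated data. Same-numbered samples of a genotype shared a slide. Their deviations from group means correlated with r of 0.481 to 0.852 in Atm-WT and 0.269 to 0.509 in Atm-KO cells. For differently numbered samples r reached 0.301 in Atm-WT and 0.334 in Atm-KO cells. In Atm-KO cells the ranges thus overlapped, and pairs 2 and 3 were both on slide 3, so pair and slide were not told apart there. Between genotypes, same-numbered samples had r of 0.217 to 0.628 in irradiated and -0.218 to 0.178 in nonirradiated cells. Differently numbered ones reached 0.386 and 0.279. The 75th percentile of signal stands for depth, and the number of arrays limits precision.

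Members and lists were chosen with earlier results of these data known. Named genes are the members, Atm, per member the 3 genes with the highest r, and per list up to 4 genes with the smallest p for averaged irradiation with pairs, plus genes called; Cdc7, Dbf4, Dtl, E2f1, Orc5, Top2a and Bub1 were added after their values were seen. Gins1, Gmnc and Skp2 were not among the named probes. Alternatives were other backgrounds, scalings, filters, probe rules, slide and pair terms, and left-out samples.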

Additional observations from a re-analysis of the deposited data

How the results depend on the processing

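Under 29 alternative settings, all 435 irradiation values of the 5 genes stayed below 0, and no genotype or interaction value was called. For irradiation averaged over genotypes, where the reported fit called 0 members, 3 were called after quantile normalization, 3 with slide as a random block, 3 with the replicate block, 2 with slide as a fixed term, 1 with only probes well above background on all arrays and 1 with the mean of a gene's probes. Leaving out samples gave 0 to 2 members for that comparison, with and without the block, and 0 to 1 for irradiation in Atm-KO cells (Cdc6, limma's adjusted p = 0.0453 with pairs and without those numbered 2). With normexp background correction the median of all features moved to -0.16 in Atm-WT cells and -0.13 on average; relative to that the averaged differences were -0.62 for Cdc6, -0.51 for Cdt1, -0.39 for Orc1, -0.18 for Orc6 and -0.52 for Mcm10. The replicate block changed no other call of a member.

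None of the values that changed sign was called, and the causes were not tested. With normexp the difference of irradiation effects was -0.15 for Cdt1, -0.012 for Orc6 and 0.24 for Cdc6, where the median of all features was 0.16. The genotype difference was 0.14 for Orc6 and -0.12 for Cdc6 without irradiation (median -0.13) and 0.13 for Cdc6 after it (median 0.056). Relative to these medians, the values in the same order were -0.31, -0.17 and 0.086, then 0.27 and 0.011, then 0.070. With the mean of probes the irradiated genotype difference of Cdc6 was 0.14. With slide as a fixed term the nonirradiated genotype difference was 0.32 for Orc6 and 0.86 for Orc1, and the irradiated one 0.17 for Cdc6; with slide as a random block the nonirradiated one was 0.0047 for Orc6 and 0.081 for Orc1. Leaving out samples, the difference of effects ran from -0.12 to 0.26 for Cdt1, -0.39 to 0.0044 for Mcm10, -0.054 to 0.37 for Orc6 and -0.20 to 0.71 for Orc1 (with pairs also -0.061 for Cdt1 and -0.065 for Orc1). The nonirradiated genotype difference ran from -0.29 to 0.10 for Orc6 and -0.43 to 0.24 for Orc1, and the irradiated one from -0.11 to 0.30 for Orc6, -0.32 to 0.37 for Orc1 (-0.22 with pairs) and -0.29 to 0.080 for Cdc6.

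Over all features, the averaged comparison called 334 features as reported, 1890 with the replicate block, 602 with slide as a fixed term, 515 with it as a random block, 132 with no filter, 99 with normexp, and 0 to 772 when samples were left out without the block. Signal did not limit detection of any member, all of whose probes were well above background, and 3 arrays a group limited precision. The sizes of the Orc1 and Cdc6 differences within a genotype still depended on the background method. With normexp Orc1 differed by -0.93 in Atm-WT and -0.093 in Atm-KO cells, instead of -0.60 and -0.37. Cdc6 differed by -0.87 in Atm-WT and -0.63 in Atm-KO cells, instead of -0.61 and -1.11.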
